A study of Mus musculus with 8 samples.

Results

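The comparison set statin-treated RAW264.7 macrophages against macrophages without statin, both after lipopolysaccharide (LPS), across all genes whose normalized count averaged 10 or more in the 4 libraries concerned. By this rule 11613 of the 24421 entries of the expression table were members. They were measured in 4 of the 8 libraries of the series by RNA sequencing of RAW264.7 cells, a mouse macrophage line transformed by a leukaemia virus. The statin LPS cells (2 libraries) had received a statin at 7 µM with lipoprotein-deficient serum (LPDS), and then LPS at 100 ng/ml for 3 h in medium with albumin. The ctl LPS cells (2 libraries) had received the same LPS without the statin. The statin was lovastatin given with mevalonate, per the study. Neither the serum of the cells without statin nor whether they had mevalonate is stated, so the values compare the whole treatment. All cells are 1 transformed line, and nothing states whether the 2 libraries of a group came from separate cultures, so p-values measure only the spread between these libraries. The other 4 libraries, of statin cells and of untreated Ctrl cells that had no LPS, are given below only as levels.

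LPS is a component of the outer membrane of Gram-negative bacteria that macrophages sense through Toll-like receptor 4 (TLR4) and its partners Cd14 and Ly96. One branch of the receptor signals from the cell surface through the adaptor Myd88 and activates NF-kB and MAP kinases, which switch on genes of cytokines and chemokines. A second branch signals from endosomes through the adaptors Ticam2 and Ticam1 to the kinase Tbk1 and the factor Irf3, which switch on the interferon gene Ifnb1. Secreted interferon then acts back on the cell through its receptor, the kinases Jak1 and Tyk2 and factors that include Stat2 and Irf9, and induces the interferon-stimulated genes. Statins block the synthesis of mevalonate, the precursor of cholesterol and of the lipid groups that anchor small GTPases to membranes. Low sterol activates the factor SREBP2 and with it the genes of cholesterol synthesis and uptake, while oxysterols made from cholesterol activate the liver X receptors (LXR) and with them the genes of cholesterol export.

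Both groups were deeply sequenced. The 2 statin LPS libraries held 58.3 and 37.9 M reads over genes, and the ctl LPS libraries 76.4 and 51.1 M (M, 1e6 reads). Macrophage markers were abundant in all 4. Csf1r, the receptor for the macrophage growth factor, had 84237 and 81236 in statin LPS, against 81045 and 82787 in ctl LPS (normalized counts, as are all levels below), and Spi1, the factor that specifies the lineage, had 33776 and 34846 in statin LPS, against 32610.2 and 33241 in ctl LPS. Neither passed the test (adjusted p = 0.673 and 0.0703), but the other planned macrophage markers did. Cd68 was higher (log2 change 0.15) and Lyz2 (-0.12), Itgam (-0.20) and Fcgr3 (-0.32) were lower. Each of these 4 changes was less than the shift of 0.34 between scalings given below. Adgre1, which encodes the surface marker F4/80, was lower in statin LPS, with 14568 and 14343 in statin LPS, against 23692 and 23192 in ctl LPS. The epithelial markers (4 genes), the erythroid markers (6 genes) and the T cell genes Cd3e and Cd3g had no read in any LPS library.

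The 2 ctl LPS libraries did not match in one group of genes. Transcripts of the complement component C1q (C1qa, C1qb and C1qc together), which tissue macrophages secrete, came to 273 and 365 in statin LPS, against 1634 and 1.25 in ctl LPS replicates 1 and 2, and to 0 to 5.88 in the resting libraries. C1qb, for one, had 149.6 and 169 in statin LPS, against 806 and 0 in ctl LPS, with values in the 2 statin LPS libraries between those of the 2 ctl LPS libraries. Collagen and fibroblast markers (10 genes) summed to 574 and 681 in statin LPS, against 1226 and 46.3 in ctl LPS, and at rest to 438 and 598 in statin and 45.3 and 166 in Ctrl cells. Nearly all of the resting sums was 1 gene, Pdgfrb, with 436 and 596 in statin and 43.7 and 166 in Ctrl cells. Each other marker was at 0 to 1.56 at rest. Pdgfrb had 129 and 138 in statin LPS, against 94.1 and 40.1 in ctl LPS, and passed (log2 change 1.10, adjusted p = 0.00554). Col1a1, which encodes a chain of type I collagen, had 137 and 175 in statin LPS, against 313 and 0 in ctl LPS, and Col3a1, a chain of type III collagen, had 45.2 and 69.1 in statin LPS, against 165 and 0 in ctl LPS. Of other genes of tissue macrophages, Folr2, a folate receptor, had 6.96 and 18.6 in statin LPS, against 68.0 and 2.50 in ctl LPS, and F13a1, the A chain of coagulation factor XIII, had 20.9 and 19.9 in statin LPS, against 26.9 and 0 in ctl LPS. Mrc1, the mannose receptor, had 73.9 and 81.0 in statin LPS, against 206 and 77.6 in ctl LPS, and did not pass. Its log2 change was -1.40 without ctl LPS replicate 2 and -0.004 without ctl LPS replicate 1. Pf4 and Sepp1, of the same marker class, did pass as lower. Pf4 had 84.4 and 83.7 in statin LPS, against 197 and 133 in ctl LPS (-0.93, adjusted p = 6.83e-04). Sepp1 had 226 and 246 in statin LPS, against 870 and 284 in ctl LPS (-1.07, adjusted p = 0.0136). Both were read at rest, Pf4 with 43.7 and 29.4 and Sepp1 with 315 and 667 in Ctrl cells. Cd163, Retnla and Arg1 had no read in these 4 libraries.

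Across all members, 60 genes were more than 10-fold higher in ctl LPS replicate 1 than in replicate 2 (on normalized counts plus 1), and 1 gene was the other way round. In the statin LPS pair, 1 gene differed that much. Of the 60 genes, 59 had both statin LPS libraries between the 2 ctl LPS libraries, and 0 passed the test in either direction. The 10 widest gaps among genes with at least 100 normalized counts in a ctl LPS library included Apoe, the lipoprotein component, with 1321 and 1616 in statin LPS, against 6525 and 31.3 in ctl LPS, the matrix genes Bgn, Sparc, Col1a1 and Col3a1, the adhesion receptor gene Vcam1 and the transporter gene Slco3a1. The same 60 genes made up 0.00668% and 0.00799% of statin LPS normalized counts, against 0.0196% and 0.000139% of those of ctl LPS. They summed to 3391 and 4023 in statin LPS, against 12614 and 88.9 in ctl LPS, and to 164 to 240 in the resting libraries, so that 3 of the 4 LPS libraries stood apart from the other 5 libraries of the series. Whether RNA of another cell population was in those 3 libraries, and what part these transcripts have in other results, was not tested. The counts of called genes are given below with and without ctl LPS replicate 1.

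**Figure D1:**
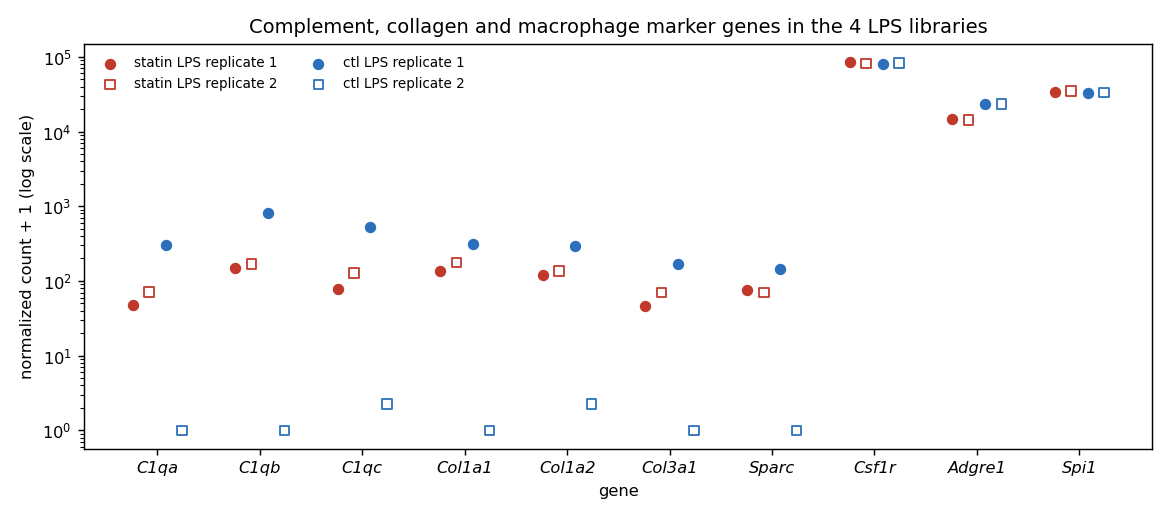
Normalized counts plus 1 (log axis) of 3 complement genes, 4 matrix genes and 3 macrophage markers in the statin LPS (red) and ctl LPS (blue) libraries, replicate 1 filled and replicate 2 open. Complement and matrix genes are highest in ctl LPS replicate 1, near 0 in ctl LPS replicate 2 and between them in both statin LPS libraries. The macrophage markers Csf1r and Spi1 lie at like levels in all 4, and Adgre1 is lower in both statin LPS libraries.

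The question of the comparison is what the statin treatment does to the transcriptome of LPS-stimulated macrophages. Interferon-stimulated genes, genes of antigen presentation and the cholesterol exporters Abca1 and Abcg1 were far lower in statin LPS, and most genes of cholesterol synthesis, mitosis and secreted growth factors were higher. At an adjusted p under 0.05 in limma, 4337 of 11613 genes were higher (37.3%) and 4640 were lower (40.0%), so that most genes (77.3%) passed, and the counts of each list below are read against these shares. With a fold change of more than 2 as well, 20.4% did, 990 higher (8.52%) and 1374 lower (11.8%). Without ctl LPS replicate 1 those counts were 1107 and 1374. The lower tail was longer. Beyond 4-fold there were 219 genes higher and 531 lower, and beyond 16-fold 14 and 89. The median log2 change over all genes was -0.02, and the central 90% lay between -1.91 and 1.38. In each gene below that passed and has its values given per library, the 2 statin LPS libraries lay wholly above or wholly below the 2 ctl LPS libraries, except in Cxcl1.

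Normalized totals differed between the groups, at 50.5 M in statin LPS and 64.1 M in ctl LPS (means of 2 libraries). The genes more than 2-fold lower summed to 4.54 M in statin LPS and 17.0 M in ctl LPS, those more than 2-fold higher to 3.06 and 1.12 M, and all other tested genes to 42.9 and 45.9 M. Scaling each library to an equal total moved the median log2 change by 0.34, so that 6815 genes were called higher and 2638 lower, 72.1% higher against 48.3% with the deposited scaling. Directions below are relative to the deposited scaling, and small changes that turn with equal totals are named as such.

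**Figure D2:**
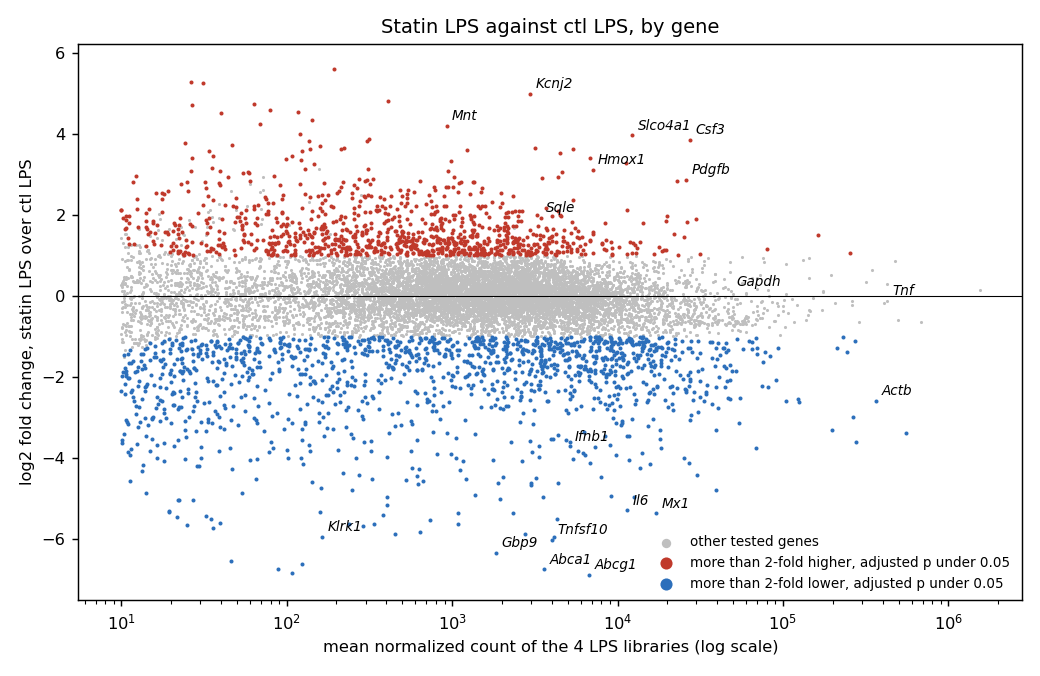
Each point is one of the tested genes, with its mean normalized count over the 4 LPS libraries (x, log scale) and its log2 fold change, statin LPS over ctl LPS (y). The 990 red genes were more than 2-fold higher and the 1374 blue genes more than 2-fold lower, and the lower tail reaches below -6, with Abcg1 at -6.87.

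The share of genes past 2-fold depended on the level. It was 34.4% of 1601 genes with a mean of 10 to 100 normalized counts, where the median SE was 0.36, 21.9% of 3503 genes at 100 to 1000, 14.3% of 5419 genes at 1000 to 10000, and 25.1% of 1090 genes above. In this last, most abundant class, 2.94% were more than 2-fold higher and 22.2% more than 2-fold lower. Of 10877 genes whose 2 libraries lay within 1.5-fold of each other in both groups (on normalized counts plus 1), 888 were more than 2-fold higher and 1182 lower.

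The 10 largest falls among genes with a mean of at least 100 and close replicates were led by 2 cholesterol exporters. Abcg1, a pump that moves cholesterol to high density lipoprotein (chr17:31057675-31117988 in mm10), had 105 and 121 in statin LPS, against 13257 and 13409 in ctl LPS, a log2 change of -6.87 ± 0.06 (SE, adjusted p = 6.10e-16). Abca1, which loads cholesterol onto apolipoprotein A-I (chr4:53030787-53159895), had 61.8 and 70.4 in statin LPS, against 7240.5 and 7049.9 in ctl LPS, a change of -6.74 ± 0.07 (adjusted p = 1.84e-15). Both statin LPS libraries thus stood far below both ctl LPS libraries for each exporter. At rest, Abcg1 had 1116 and 1339 in statin and 10059.6 and 10929 in Ctrl cells, and Abca1 17.9 and 17.9 and 458 and 517.

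The guanylate-binding GTPases Gbp9 and Gbp4, which act against intracellular microbes, had 44.4 and 43.8 in statin LPS against 3631 and 3608 in ctl LPS, and 13.9 and 14.6 against 891 and 899 (log2 change -6.33 and -5.88). Their genes lie side by side on chromosome 5 among close copies, so reads may be shared between family members. Iigp1, an immunity-related GTPase, had 121 and 141 in statin LPS, against 8282 and 7989 in ctl LPS (-5.95), and Apol9b, an apolipoprotein L gene with a close copy, had 18.3 and 25.2 in statin LPS, against 1296 and 1218 in ctl LPS (-5.81). All of these were at 0.78 to 24.2 in the resting Ctrl and statin libraries, so that they stood higher in statin LPS than at rest and far higher still in ctl LPS. Tnfsf10, the death ligand TRAIL, had 117 and 126 in statin LPS, against 7863 and 7901 in ctl LPS (-6.01). Klrk1, the receptor NKG2D known from natural killer cells, had 3.48 and 5.31 in statin LPS, against 333 and 314 in ctl LPS (-5.93). Ms4a4c, a tetraspan membrane protein gene, had 87.9 and 95.6 in statin LPS, against 5586 and 5227 in ctl LPS (-5.87), and Pou3f1, a POU-domain transcription factor, had 9.57 and 10.6 in statin LPS, against 563 and 568 in ctl LPS (-5.68). The adjusted p of these 10 genes was at most 9.74e-10, and in none did the groups overlap.

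In statin LPS 7 members had no read in either library, and no member was without reads in both ctl LPS libraries. The most abundant of the 7 was another guanylate-binding gene, Gbp8, with 112 and 72 reads in ctl LPS, at least 58.7-fold lower in statin LPS if 3 reads over the group are taken as the floor. In normalized counts Gbp8 had 94.1 and 90.1 in ctl LPS. At rest it had 0 and 0 in statin and 57.0 and 61.7 in Ctrl cells, so it was without reads under statin before LPS too. The other genes without reads in statin LPS were Bank1, Cacna2d3, Cndp1, Fam3b, Ly6i and Rbm11.

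The 10 largest rises by the same rule were of mixed function. Kcnj2, an inward-rectifier potassium channel, had 6092 and 5426 in statin LPS, against 195 and 165 in ctl LPS, a log2 change of 4.99 ± 0.08 (adjusted p = 3.85e-14). Cxcr4, the receptor of the chemokine Cxcl12, had 312 and 232 in statin LPS, against 15.1 and 10.0 in ctl LPS (4.34), and Mnt, a repressor that competes with Myc for its partner Max, had 1826 and 1696 in statin LPS, against 91.6 and 97.7 in ctl LPS (4.20). Slco4a1, an organic anion transporter, had 23753 and 22396 in statin LPS, against 1442 and 1505 in ctl LPS (3.97). These genes were high at rest, where Cxcr4 had 3155 and 3102 in statin and 977 and 1795 in Ctrl, Kcnj2 9598 and 6848 in statin and 6856 and 7633 in Ctrl, Mnt 3641 and 3582 in statin and 3079.9 and 3098 in Ctrl, and Slco4a1 50789.8 and 50597 in statin and 25035 and 33626 in Ctrl. The statin LPS level thus lay below the resting levels and the ctl LPS level far below them.

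Ccnf, an F-box protein of the cell cycle, had 612 and 569.8 in statin LPS, against 41.2 and 37.6 in ctl LPS (3.87), and Pif1, a DNA helicase, had 249 and 262 in statin LPS, against 21.0 and 13.8 in ctl LPS (3.83). Csf3, the cytokine that drives granulocyte production (chr11:98701263-98703629), stood alone among the 10 as an LPS-induced cytokine. It had 52705 and 50503 in statin LPS, against 3617 and 3507 in ctl LPS, 59.1 and 48.9 in resting statin cells and 4.68 and 1.96 in Ctrl cells, a change of 3.86 ± 0.03 under LPS (adjusted p = 3.05e-16). Epha2, an ephrin receptor kinase, had 303 and 287 in statin LPS, against 21.0 and 22.5 in ctl LPS (3.70), and Bhlhe40, a transcriptional repressor of the clock and of immune genes, had 6023 and 5714 in statin LPS, against 461 and 468 in ctl LPS (3.66). The adjusted p of the 10 rises was at most 1.13e-08, and the groups did not overlap in any.

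**Figure D3:**
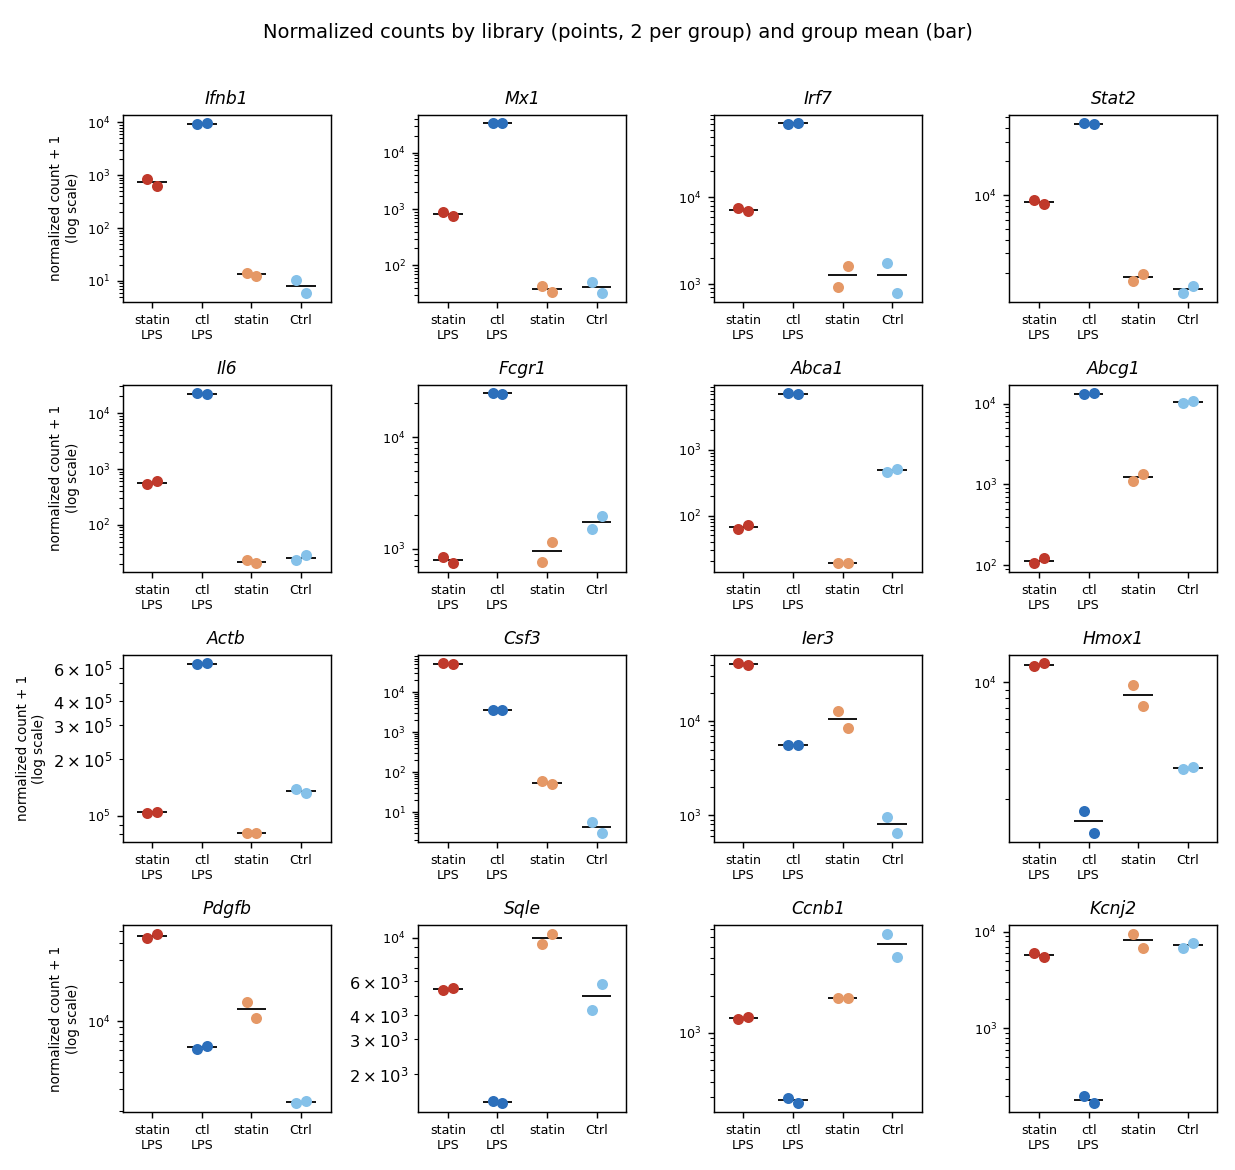
Normalized count plus 1 (log axis, scaled per gene) of 16 genes in each library (points) with the group mean (bar), from left to right statin LPS, ctl LPS, statin and Ctrl, 2 libraries each. The 9 genes from Ifnb1 to Actb are lower in statin LPS than in ctl LPS and the 7 from Csf3 to Kcnj2 are higher, with the 2 libraries of each LPS group close together.

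Interferon-stimulated genes were all lower. Of 49 tested, 49 were lower in statin LPS and 48 of them by more than 2-fold, where 40.0% and 11.8% of all genes were. Their median log2 change was -2.85, against -0.02 over all genes, and the values ran from -5.36 to -0.91. Mx1, a GTPase that blocks the copying of RNA viruses (chr16:97447035-97462907), had 873 and 754 in statin LPS, against 33298 and 33316 in ctl LPS (-5.36 ± 0.05, adjusted p = 9.34e-16). Ifit1bl1, of the family that binds viral RNA, had 209.7 and 259 in statin LPS, against 5772 and 5739 in ctl LPS (-4.62). Irf7, the factor that amplifies interferon production, had 7472 and 6939.8 in statin LPS, against 71430.1 and 71821 in ctl LPS (-3.31). Stat2, which carries the interferon signal to the nucleus, had 9007 and 8395 in statin LPS, against 43799.8 and 42904 in ctl LPS (-2.32). The smallest change of the list was that of Irf9, the partner of Stat2 on DNA, at -0.91. Mx1 still stood above its level at rest in both statin LPS libraries, with 42.1 and 32.9 in statin and 50.7 and 31.4 in Ctrl cells. The median of the list was -2.84 without ctl LPS replicate 1 and -2.51 with equal totals. Several families of the list, among them Ifit, Gbp, Oas and Slfn genes, hold near-identical copies between which the counting could have divided reads.

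The element bound by the complex of Stat2 and Irf9, the interferon-stimulated response element (ISRE), was searched on both strands as GAAA, any 2 bases and GAAA again in the 250 bases before each start of transcription (RefSeq, GRCm38.p6). It was present in 23 of the 39 interferon-stimulated genes with a promoter in the table, 59.0%, against 3.46% of 27025 genes in all. The windows below show, in capitals, the match nearest the start in members with large values, chosen after their values were seen, each 5′ to 3′ on the gene's own strand.
Ifit1, chr19:34640779-34640838, plus strand: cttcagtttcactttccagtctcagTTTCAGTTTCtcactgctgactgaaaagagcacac
Ifit3, chr19:34583382-34583441, plus strand: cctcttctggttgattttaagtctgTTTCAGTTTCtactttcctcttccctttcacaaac
Rsad2, chr12:26456538-26456597, minus strand: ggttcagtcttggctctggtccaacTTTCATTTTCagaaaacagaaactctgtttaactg
Isg15, chr4:156200850-156200909, minus strand: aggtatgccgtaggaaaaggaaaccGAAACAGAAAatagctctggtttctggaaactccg
Cxcl10, chr5:92349068-92349127, minus strand: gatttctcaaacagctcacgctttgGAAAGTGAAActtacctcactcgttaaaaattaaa
Gbp2, chr3:142620579-142620638, plus strand: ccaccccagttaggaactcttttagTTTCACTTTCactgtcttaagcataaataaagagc
Stat2, chr10:128270251-128270310, plus strand: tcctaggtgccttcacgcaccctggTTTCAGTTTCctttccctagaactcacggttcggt
Ifit1, Ifit3, Rsad2, Isg15, Cxcl10, Gbp2 and Stat2 carry it on either strand, as the GAAA pair or as its complement, a pair of TTTC, and the match nearest the start ended 50 (Gbp2) to 213 (Stat2) bases before it. Rsad2, the antiviral enzyme viperin, had 102054 and 92629 in statin LPS, against 1006980.00 and 1006990.00 in ctl LPS, a log2 change of -3.37, and was the second most abundant gene of both ctl LPS libraries. Ifit1 had 37147 and 33716 in statin LPS, against 215574 and 213993 in ctl LPS (-2.60), and Isg15, a ubiquitin-like modifier, had 21139 and 19617 in statin LPS, against 69584 and 65936 in ctl LPS (-1.73).

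Over all tested genes with a promoter, an ISRE match was held by 10.6% of 1005 genes more than 2-fold lower, by 2.61% of 767 more than 2-fold higher and by 2.53% of the other 7125. Read the other way, 106 of 306 genes with a match were more than 2-fold lower, 34.6%, against 10.5% of 8591 genes without one, and 6.54% were more than 2-fold higher, against 8.70%. Within the interferon list, members with a match had a median log2 change of -2.60 (23 genes) and members without one -3.20 (16 genes), so a match in this window did not mark the larger falls. A match is a description of the letters and not a bound site.

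**Figure D4:**
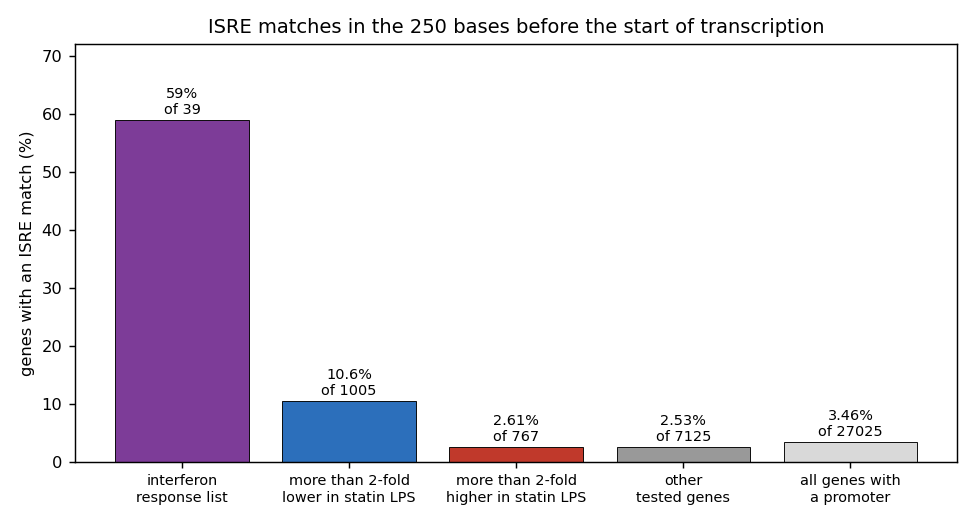
Percent of genes with at least 1 ISRE match (GAAA, any 2 bases, GAAA, on both strands) in the 250 bases before the start of transcription, with the number of genes that have a promoter in the table above each bar. The share was 59.0% in the interferon-stimulated list, 10.6% of genes more than 2-fold lower in statin LPS, 2.61% of those more than 2-fold higher, 2.53% of the other tested genes and 3.46% of all genes.

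Genes upstream of this response were divided. Of 20 genes of interferon induction and its receptor, 4 were higher (20%) and 15 lower (75%), where 37.3% and 40.0% of all genes were. By more than 2-fold, 1 was higher (5%) and 9 lower (45%), where 8.52% and 11.8% of all genes were. The median was -0.96. Ifnb1, the interferon of the TLR4 response (chr4:88522025-88522774), had 857 and 619 in statin LPS, against 9401 and 9641 in ctl LPS, a change of -3.71 ± 0.10 (adjusted p = 6.43e-12), and stood at 4.90 to 13.4 at rest. Both statin LPS libraries were thus above the resting level and more than 10-fold under ctl LPS. Irf8, a factor of macrophage identity, had 5775 and 5129 in statin LPS, against 24189.5 and 24668 in ctl LPS (-2.17). Among sensors and kinases, Tmem173 (STING) changed by -1.81, Jak2 by -1.72, Tyk2 by -1.18 and Tbk1 by -0.94. The adaptor genes of the endosomal branch were not among the falls by more than 2-fold. Ticam1 had 3784 and 3866 in statin LPS, against 1888 and 1938 in ctl LPS (1.00), the adaptor Traf3 had 2199 and 2327 in statin LPS, against 885 and 865 in ctl LPS (1.37), and Irf3 had 1546 and 1592 in statin LPS, against 1391 and 1378 in ctl LPS (0.18). Ifnar1, a chain of the interferon receptor, had 6220.3 and 6296 in statin LPS, against 6632 and 6485 in ctl LPS and did not pass the test (adjusted p = 0.0594), while the other chain, Ifnar2, was lower by -0.64.

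Antigen presentation and costimulation genes were all lower. Of 18 tested, 18 fell and 17 by more than 2-fold, with a median of -1.87. Nlrc5, which activates genes of MHC class I, had 2226 and 2179.6 in statin LPS, against 18889.5 and 19453 in ctl LPS (-3.12 ± 0.03, adjusted p = 9.34e-16), and Cd86, a costimulator of T cells, had 575 and 498 in statin LPS, against 4824 and 4466 in ctl LPS (-3.11). The peptide transporter Tap1 changed by -2.82, the immunoproteasome subunit Psmb9 by -2.80, the checkpoint ligand Cd274 by -2.73 and the costimulator Cd40 by -2.41. The class I chains moved less, with B2m at -1.39 and H2-K1 and H2-D1, which are alike in sequence, both at -1.27. Of MHC class II, the chaperone Cd74 had 23386 and 22519 in statin LPS, against 54873 and 56728 in ctl LPS (-1.28), whereas H2-Aa had 27.8 and 34.5 in statin LPS, against 102 and 10.0 in ctl LPS and did not pass (adjusted p = 0.929), with its ctl LPS libraries far apart. Its change was 1.54 without ctl LPS replicate 1 and -1.69 without replicate 2. H2-Ab1, another class II gene, had 32.2 and 42.5 in statin LPS, against 186 and 98.9 in ctl LPS (-1.85, adjusted p = 6.63e-05). H2-Eb1 had 14.8 and 9.30 in statin LPS, against 69.7 and 12.5 in ctl LPS (-1.28), and did not pass (adjusted p = 0.0887).

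Macrophage effector genes moved both ways, with 8 higher (29.6%) and 16 lower (59.3%) of 27, where 37.3% and 40.0% of all genes were. Their median of -0.22 was 0.12 with equal totals, where 14 were higher and 10 lower. Fcgr1 and Fcgr4, activating receptors for IgG, had 849.96 and 744 in statin LPS against 24584 and 24478 in ctl LPS (-4.95), and 714 and 603 against 7374 and 7708 (-3.52). Fcgr2b, the inhibitory receptor of the family, had 8226 and 7872 in statin LPS, against 4198 and 3946 in ctl LPS, a log2 change of 0.98. Nos2, which makes nitric oxide, had 11534 and 9822 in statin LPS, against 43794 and 44442 in ctl LPS (-2.05), and the inflammatory caspases Casp1 and Casp4 changed by -2.24 and -2.11. Clec4n (Dectin-2), a receptor for fungal sugars, had 922 and 908 in statin LPS, against 162 and 156 in ctl LPS (2.52), and the prostaglandin synthases Ptgs1 and Ptgs2 changed by 2.54 and 0.65.

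Cytokine genes did not move as one. Among 24 tested, 8 rose (33.3%) and 15 fell (62.5%), where 37.3% and 40.0% of all genes did, with a median of -0.69. By more than 2-fold, 3 rose (12.5%) and 11 fell (45.8%), where 8.52% and 11.8% of all genes did. With equal totals 10 were higher and 13 lower. Il6, which drives fever and the acute phase response (chr5:30013114-30019981), had 539 and 600.3 in statin LPS, against 22543 and 21827 in ctl LPS, a change of -5.28 ± 0.05 (adjusted p = 5.65e-16). Il12b, a chain of interleukins 12 and 23, had 60.9 and 65.1 in statin LPS, against 304 and 101 in ctl LPS (-1.47, adjusted p = 0.00281), with the ctl LPS libraries far apart, and the change was -0.68 without ctl LPS replicate 1 and -2.25 without replicate 2. Il10, an anti-inflammatory cytokine, had 87.9 and 93.0 in statin LPS, against 59.6 and 36.3 in ctl LPS (0.94, adjusted p = 0.0044), with few counts, and the change was 0.59 without ctl LPS replicate 2. Il10 did not pass in a fit of all 8 libraries of the series (adjusted p = 0.0928). Tnf, an early cytokine of the LPS response, had 406149 and 406577 in statin LPS, against 429352 and 449283 in ctl LPS, a change of -0.11 ± 0.04 that was 0.23 with equal totals (adjusted p = 4.47e-05) and did not pass without ctl LPS replicate 2 (adjusted p = 0.240) or in the fit of all 8 libraries (0.429). Il1b had 223873 and 233862 in statin LPS, against 160572 and 161090.00 in ctl LPS (0.51), which did not pass in the fit of all 8 libraries (adjusted p = 0.0543), and Il1a had 51865 and 49703 in statin LPS, against 49761 and 48698 in ctl LPS and did not pass (adjusted p = 0.188). The largest fall after Tnfsf10 and Il6 was that of Il33, an alarmin, at -4.36, followed by Csf1, the macrophage growth factor, at -4.13 and Il15, which sustains natural killer cells, at -3.45. Il27, an interferon-linked cytokine, had 10645 and 10291 in statin LPS, against 70499 and 71549 in ctl LPS (-2.76). Csf3, given above, was the largest rise, followed by Osm, a cytokine of the Il6 family, with 5734 and 5473 in statin LPS, against 1699 and 1828 in ctl LPS (1.67), and Csf2, with 1.65.

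Chemokine genes moved both ways, and a larger share of them than of all genes went past 2-fold. Of 20 tested, 7 were higher (35.0%) and 10 lower (50%), where 37.3% and 40.0% of all genes were, with a median of -0.15. With equal totals 10 were higher and 9 lower, with a median of 0.19. By more than 2-fold in the main test, 3 were higher (15%) and 7 lower (35%), where 8.52% and 11.8% of all genes were. The 3 ligands of Cxcr3, which draw T cells, all fell. Cxcl9 had 73.1 and 106 in statin LPS, against 2719 and 2595 in ctl LPS (-4.90), Cxcl11 had 3427 and 2283 in statin LPS, against 74899 and 77812 in ctl LPS (-4.77), with 42% of its exonic length overlapped by another gene on the other strand, and Cxcl10 had 65725 and 52764 in statin LPS, against 470798 and 466892 in ctl LPS (-2.99). Of the ligands of Cxcr2, which draw neutrophils, Cxcl2 rose with 619353 and 614126 in statin LPS, against 346517 and 329576 in ctl LPS (0.87), and Cxcl3 with 262 and 266 in statin LPS, against 97.4 and 28.8 in ctl LPS (2.29), a change that was 1.43 without ctl LPS replicate 2. Cxcl5 had 33.9 and 31.9 in statin LPS, against 76.4 and 0 in ctl LPS and did not pass (adjusted p = 0.213), with its ctl LPS libraries far apart. Cxcl1, another such ligand, had few counts, with 95.7 and 105 in statin LPS, against 95.8 and 16.3 in ctl LPS (1.31, adjusted p = 0.0487). Its groups overlapped, and it no longer passed without ctl LPS replicate 2 (0.06, adjusted p = 0.795) or without statin LPS replicate 1 or 2 (adjusted p = 0.153 and 0.189), nor by edgeR (0.168) or DESeq2 (0.499). Ccl5 had 35115 and 34591 in statin LPS, against 145267 and 148827 in ctl LPS (-2.08), and Ccl17 had few counts, with 21.7 and 19.9 in statin LPS, against 5.88 and 2.50 in ctl LPS (2.15), and did not pass without statin LPS replicate 1 or 2 (adjusted p = 0.0754 and 0.0624). Ccl2 and Ccl4, which draw monocytes and other leukocytes, changed by -0.01 and -0.05 and did not pass (adjusted p = 0.721 and 0.186).

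A kappaB element, the sequence NF-kB binds, was searched on both strands as GGGA, any base and TTTCC in the same 250 bases. It was found in 0.414% of all genes, in 0.696% of those more than 2-fold lower and in 0.782% of those more than 2-fold higher. The windows below set side by side Il6, Cxcl2 and Nfkbia, which carry the same match and moved by unlike amounts.
Il6, chr5:30013045-30013104, plus strand: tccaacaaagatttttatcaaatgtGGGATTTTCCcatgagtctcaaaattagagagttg
Cxcl2, chr5:90903777-90903836, plus strand: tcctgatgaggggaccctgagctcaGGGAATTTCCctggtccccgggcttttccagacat
Nfkbia, chr12:55492648-55492701, minus strand: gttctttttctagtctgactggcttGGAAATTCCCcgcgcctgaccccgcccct
The log2 change was -5.28 for Il6, 0.87 for Cxcl2 and -0.16 for Nfkbia, so a match of these letters went with a large fall, a rise and a small change. Cxcl1 also held a match.

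Of the TLR4 pathway genes, only Myd88 changed by more than 2-fold. Of 19 tested, 7 were higher (36.8%) and 10 lower (52.6%), where 37.3% and 40.0% of all genes were, with a median of -0.09. Of the 10, 1 was lower by more than 2-fold (5.26% of the list), where 11.8% of all genes were. With equal totals 13 were higher and 5 lower, with a median of 0.25. Tlr4 itself (chr4:66827584-66930284) had 8172 and 8235 in statin LPS, against 6002 and 6015 in ctl LPS (0.45 ± 0.03), and its co-receptor Cd14 had 188699 and 188957 in statin LPS, against 98761 and 99346 in ctl LPS (0.93). The partner Ly96 was lower by -0.63. Myd88 had 5099.7 and 5311 in statin LPS, against 18573 and 19105 in ctl LPS (-1.86, adjusted p = 5.79e-14), with 11% of its exonic length overlapped on the other strand. Map3k8, a kinase upstream of ERK, had 2076 and 2184 in statin LPS, against 4035 and 4155 in ctl LPS (-0.94), and Tollip, an inhibitor of the pathway, had 6046 and 6157 in statin LPS, against 3984 and 4096 in ctl LPS (0.59).

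Among 17 genes of NF-kB subunits and inhibitors, 4 were higher (23.5%) and 12 lower (70.6%), where 37.3% and 40.0% of all genes were. By more than 2-fold, 2 were higher and 2 lower (11.8% each), where 8.52% and 11.8% of all genes were. The median was -0.40. With equal totals 6 were higher and 8 lower, with a median of -0.06. All 5 subunit genes fell, Nfkb2 by -0.87, Rela by -0.77, Nfkb1 by -0.70, Relb by -0.40 and Rel by -0.36, of which Relb and Rel did not pass with equal totals. Tnfaip3 (A20), which ends NF-kB signalling, had 21317 and 21906 in statin LPS, against 77404 and 77020.5 in ctl LPS (-1.84 ± 0.03), and the inhibitor Nfkbie had 9263 and 9141 in statin LPS, against 18740.00 and 18756 in ctl LPS (-1.03). Nfkbia, the main inhibitor, had 82314 and 79412 in statin LPS, against 90368 and 90062 in ctl LPS, a change of -0.16 that was 0.18 with equal totals and did not pass in the fit of all 8 libraries (adjusted p = 0.287). Nfkbid, a nuclear inhibitor, had 5202 and 5119 in statin LPS, against 2219 and 2271 in ctl LPS (1.20), and the A20 partner Tnip3 had 12597 and 12282 in statin LPS, against 6248 and 6019.5 in ctl LPS (1.02).

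Of 17 other brakes on inflammation, 5 rose (29.4%) and 8 fell (47.1%), with a median of -0.08. With equal totals 11 were higher and 5 lower, with a median of 0.26. By more than 2-fold in the main test, 2 were higher (11.8%) and 4 lower (23.5%), where 8.52% and 11.8% of all genes were. Socs1 and Socs2, feedback inhibitors of cytokine receptors, had 603 and 584 in statin LPS against 2967 and 2966 in ctl LPS (-2.32), and 6.09 and 3.98 against 48.7 and 43.8 (-2.99). Socs3 changed by -0.08 (adjusted p = 0.0131) and did not pass without ctl LPS replicate 1 or 2 (adjusted p = 0.0908 and 0.0609). Trib1, a pseudokinase that degrades C/EBP factors, had 1173 and 1077 in statin LPS, against 179 and 135 in ctl LPS (2.85). Zfp36l2, an RNA-decay factor, had 2104 and 2012 in statin LPS, against 563 and 533 in ctl LPS (1.91), while its relative Zfp36 changed by -0.06 and did not pass (adjusted p = 0.0512).

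Immediate early genes, induced within minutes of a signal without new protein, moved both ways and more often up. Of 30 tested, 17 rose and 11 fell, 11 and 4 by more than 2-fold, 36.7% and 13.3% of the list where 8.52% and 11.8% of all genes did, and their median was 0.40. Ier3, a survival gene, had 41048 and 39866 in statin LPS, against 5616 and 5613 in ctl LPS (2.85 ± 0.03, adjusted p = 7.88e-16). Nr4a1, an orphan nuclear receptor, had 2152 and 1707 in statin LPS, against 285 and 267 in ctl LPS (2.79), and Egr2, Fosb and Myc changed by 1.84, 1.83 and 1.70. The kinase phosphatase gene Dusp6 went the other way, with 715 and 579 in statin LPS, against 2469.8 and 2416 in ctl LPS (-1.92), as did Fos, with 1067 and 993 in statin LPS, against 2394 and 2474 in ctl LPS (-1.24) and Egr1 (-0.96). Members of 1 family thus lay on both sides, Fos against Fosb and Egr1 against Egr2, and Dusp6 against Dusp4, which rose by 1.38. Klf2, a vascular and macrophage quiescence factor known to respond to statins, had 978 and 865 in statin LPS, against 696 and 717 in ctl LPS (0.38, adjusted p = 3.06e-04), and did not pass in the fit of all 8 libraries (adjusted p = 0.399).

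**Figure D5:**
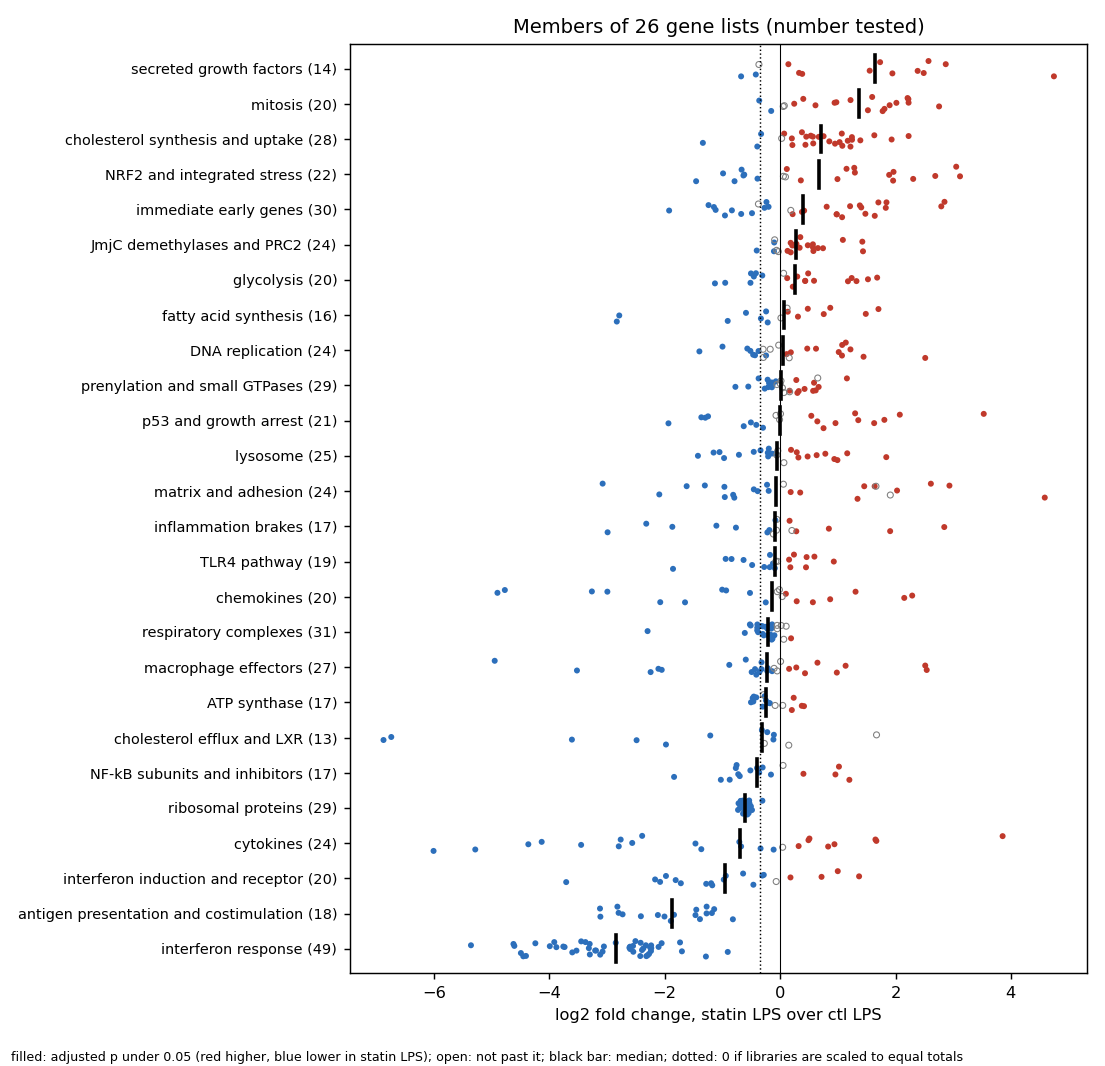
Log2 fold change, statin LPS over ctl LPS, of each tested member (points, number in parentheses) of 26 gene lists ordered by median (black bar). Filled points passed an adjusted p under 0.05 (red higher, blue lower), open points did not, and the dotted line marks where 0 lies with equal totals, so lists with medians between the lines, such as the respiratory complexes, turn with that scaling. Interferon response (median -2.85) and antigen presentation (-1.87) lie wholly below 0, and growth factors (1.64) and mitosis (1.37) lie highest.

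Genes of cholesterol synthesis and uptake were higher under LPS with statin. Of 28 tested, 24 rose and 3 fell, 11 and 1 by more than 2-fold, and the median was 0.71. Acat2, which condenses acetyl-CoA at the start of the pathway, had 1505 and 1531 in statin LPS, against 341 and 307 in ctl LPS (2.23 ± 0.07, adjusted p = 1.80e-11), and Sqle, squalene epoxidase, had 5367 and 5547 in statin LPS, against 1449.9 and 1407 in ctl LPS (1.93). Enzymes late in the pathway rose too, among them Lss (1.39), Msmo1 (1.25) and Dhcr7 (1.24). In Hmgcs1, an early enzyme of the pathway, with 7041 and 7356 in statin LPS, against 4465 and 4578 in ctl LPS (0.67), the sterol element TCACNCCAC was present, in 1 of the 20 members with a promoter and in 1.23% of all genes.
Hmgcs1, chr13:119690189-119690247, plus strand: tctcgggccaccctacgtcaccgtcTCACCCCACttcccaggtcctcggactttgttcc
The capitals in the Hmgcs1 window mark the match, and CCAAT was present in 18 of the same 20 promoters, 90.0%, against 37.5% of all genes.

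Genes of cholesterol release from lysosomes were among the members that fell. Npc2, which hands cholesterol out of lysosomes, had 27053 and 26013 in statin LPS, against 67275 and 66866 in ctl LPS (-1.34), and its partner Npc1 changed by -0.33, which was 0.013 with equal totals. Srebf2, which encodes SREBP2, was higher by 0.07 (adjusted p = 0.0355), which did not pass without ctl LPS replicate 1 or 2 or statin LPS replicate 1 (adjusted p = 0.120, 0.134 and 0.144).

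Cholesterol export and LXR target genes moved the other way, with 0 higher and 10 lower of 13, 6 of them by more than 2-fold. Their median of -0.32 was 0.03 with equal totals (4 higher and 6 lower) and does not show the spread, as Abcg1 and Abca1 lay at -6.87 and -6.74. Mylip, a ubiquitin ligase gene, changed by -3.61, the lipid transfer protein Pltp by -2.49, the sterol 27-hydroxylase Cyp27a1 by -1.98 and the phospholipid enzyme Lpcat3 by -1.21. The receptor genes themselves changed by -0.32 (Nr1h3) and -0.12 (Nr1h2), both turning with equal totals, and Nr1h3 did not pass without ctl LPS replicate 1 (adjusted p = 0.0530). Apoe and Ch25h, which also belong here, did not pass and were among the 60 genes with a gap between the ctl LPS libraries.

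Of 16 fatty acid synthesis genes, 7 were higher and 7 lower (43.8% each), near the 37.3% and 40.0% of all genes, with a median of 0.07. With equal totals 11 were higher and 4 lower, with a median of 0.41. Scd1, the desaturase that makes oleate, had 1784 and 1805 in statin LPS, against 12336 and 12449.7 in ctl LPS (-2.79 ± 0.03), and Acacb had few counts, with 8.70 and 7.97 in statin LPS, against 65.5 and 65.1 in ctl LPS (-2.83). Lpin1, a phosphatidate phosphatase, had 269.7 and 254 in statin LPS, against 85.7 and 73.9 in ctl LPS (1.70), and Elovl6, a chain elongase, had 1191 and 1150.2 in statin LPS, against 431 and 404 in ctl LPS (1.49). Of 29 genes of prenylation and small GTPases, 10 rose (34.5%), 1 of them by more than 2-fold, and 12 fell (41.4%), near the shares over all genes, with a median of 0.02. With equal totals 25 were higher and 2 lower, with a median of 0.36. Rhoq, a relative of Cdc42, had 11182 and 11642 in statin LPS, against 5255 and 4974 in ctl LPS (1.16), Rhob, a short-lived GTPase, had 3541 and 3716 in statin LPS, against 2455 and 2423 in ctl LPS (0.57, adjusted p = 0.128 in the fit of all 8 libraries), and Arhgdib, which holds such GTPases in the cytosol, had 10398 and 10240.3 in statin LPS, against 17672 and 17633 in ctl LPS (-0.77). Rhoa, Rac1 and Cdc42 were lower by 0.18 to 0.20 on the log2 scale, which is less than the shift between scalings, and all 3 turned with equal totals. Another gene on the other strand overlaps 51% of the exonic length of Rac1.

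Mitosis genes were higher in statin LPS. Of 20 tested, 16 rose and 2 fell, 11 and 0 by more than 2-fold, with a median of 1.37 (1.45 without ctl LPS replicate 1). Cenpf, a kinetochore protein, had 544 and 563 in statin LPS, against 89.0 and 73.9 in ctl LPS (2.76 ± 0.12, adjusted p = 6.14e-10). Ccnb1, the cyclin of mitotic entry, had 1299 and 1337 in statin LPS, against 296 and 267 in ctl LPS (2.23), against 1924 and 1916 in statin and 6371 and 4097 in Ctrl at rest. The ctl LPS libraries were thus lowest of all 4 groups and the statin LPS libraries stood between them and the resting cells. The mitotic kinases Plk1 and Aurka changed by 2.21 and 1.52. The checkpoint gene Bub1b and the kinetochore gene Cenpe fell, Bub1b with 9321 and 8604 in statin LPS, against 11500.4 and 11507 in ctl LPS (-0.36) and Cenpe with 1032 and 1110.4 in statin LPS, against 1263 and 1123 in ctl LPS (-0.15, 0.19 with equal totals). Cenpe did not pass without ctl LPS replicate 1 (adjusted p = 0.424) or statin LPS replicate 1 (0.260), and Bub1b did not with equal totals (-0.02). Mki67, the proliferation marker, had 5045 and 4816 in statin LPS, against 4799 and 4695 in ctl LPS and did not pass (adjusted p = 0.172). CCAAT was present in 14 of 16 mitosis promoters, 87.5%, as in the windows of Ccnb1 and Cdk1, where capitals mark it or its complement ATTGG.
Ccnb1, chr13:100786524-100786578, minus strand: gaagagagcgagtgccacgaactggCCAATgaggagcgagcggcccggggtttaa
Cdk1, chr10:69352931-69352985, minus strand: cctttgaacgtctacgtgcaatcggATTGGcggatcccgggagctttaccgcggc
Cdk1, the kinase that Ccnb1 activates, had 1886 and 1866 in statin LPS, against 946 and 1004 in ctl LPS (0.94). The letters CCAAT are short and were held by 43.9% of genes more than 2-fold higher, 40.6% of those lower and 40.5% of the other tested genes.

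Of 24 DNA replication genes, 11 were higher (45.8%) and 8 lower (33.3%), where 37.3% and 40.0% of all genes were, with a median of 0.04. With equal totals 13 were higher and 4 lower, with a median of 0.39. By more than 2-fold in the main test, 7 were higher (29.2%) and 1 lower (4.17%), where 8.52% and 11.8% of all genes were. E2f2, an activator of S-phase genes, had 204 and 235 in statin LPS, against 36.1 and 38.8 in ctl LPS (2.52), and Cdc6, which loads the replicative helicase, had 106 and 126 in statin LPS, against 43.7 and 40.1 in ctl LPS (1.45). The helicase subunits Mcm2, Mcm3, Mcm4 and Mcm7 rose by 1.08, 1.07, 1.22 and 1.02, while Mcm6 changed by -0.47. Mcm10, which activates the helicase, had 498 and 588 in statin LPS, against 1436 and 1419.7 in ctl LPS (-1.40), and Ccne1, the cyclin of S-phase entry, had 178 and 186 in statin LPS, against 355 and 374 in ctl LPS.

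Of 21 genes of the p53 response and growth arrest, 10 rose (47.6%) and 8 fell (38.1%), where 37.3% and 40.0% of all genes did, with a median of 0.01. With equal totals 12 were higher and 5 lower, with a median of 0.35. By more than 2-fold in the main test, 6 were higher (28.6%) and 4 lower (19.0%), where 8.52% and 11.8% of all genes were. Plk3, a stress kinase, had 8246 and 8191 in statin LPS, against 708 and 714 in ctl LPS (3.53 ± 0.04), and Sesn1, a sestrin, had 1328 and 1223 in statin LPS, against 292 and 312 in ctl LPS (2.07). Fas, the death receptor, had 2283 and 2307 in statin LPS, against 8874 and 8677 in ctl LPS (-1.93), Ccng2 had 4361 and 3935 in statin LPS, against 10663 and 10678 in ctl LPS (-1.36) and Cdkn1a, the inhibitor p21, changed by -1.30.

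Stress genes moved both ways. Of 22 tested genes of the NRF2 response and of integrated or endoplasmic reticulum stress, 13 rose (59.1%) and 7 fell (31.8%). Over all genes these shares were 37.3% and 40.0%. By more than 2-fold, 10 rose (45.5%) and 1 fell (4.55%), where 8.52% and 11.8% of all genes did. The median was 0.68. Antioxidant genes were among those that rose. Hmox1, which degrades haem, had 12383 and 12909 in statin LPS, against 1700.3 and 1246 in ctl LPS (3.12 ± 0.10, adjusted p = 2.05e-11), Srxn1, sulfiredoxin, had 7839 and 8551 in statin LPS, against 1013 and 960.3 in ctl LPS (3.05), and Gclc and Gclm, the 2 chains of the enzyme that starts glutathione synthesis, changed by 2.31 and 1.96. Several genes downstream of the factor Atf4 fell, with Trib3 at 3225 and 3473 in statin LPS, against 9231 and 9127 in ctl LPS (-1.46), Ddit3 (CHOP) at 1989.6 and 2037 in statin LPS, against 3916 and 4075 in ctl LPS (-0.99), Asns at -0.62 and Psat1 at -0.67, while Atf4 itself changed by 0.12, which did not pass in the fit of all 8 libraries (adjusted p = 0.516).

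Of 24 JmjC demethylase and Polycomb repressive complex 2 genes, 18 rose (75%) and 3 fell (12.5%), with a median of 0.28. By more than 2-fold, 3 rose (12.5%) and 0 fell, where 8.52% and 11.8% of all genes did. Kdm6b, which encodes the H3K27 demethylase Jmjd3, had 11010.3 and 11021 in statin LPS, against 7915 and 7876 in ctl LPS (0.48 ± 0.03, adjusted p = 6.64e-09), and its relative Kdm6a had 1616 and 1668 in statin LPS, against 1053 and 1030.4 in ctl LPS (0.66). Larger rises were those of the H3K9 demethylase Kdm3a, with 2459 and 2376 in statin LPS, against 917 and 869 in ctl LPS (1.44), and of Kdm4b, with 1442 and 1415 in statin LPS, against 532 and 531 in ctl LPS (1.43). The Y-linked member Uty had 1201 and 1251 in statin LPS, against 1621 and 1625 in ctl LPS (-0.41), and Kdm7a had 7601 and 7579 in statin LPS, against 8319 and 8026 in ctl LPS (-0.11, 0.24 with equal totals), which did not pass without ctl LPS replicate 1 (adjusted p = 0.0907). Uty did not pass with equal totals (-0.06).

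ATP synthase genes, 4 higher and 10 lower of 17, and respiratory complex genes, 1 higher and 25 lower of 31, had medians of -0.25 and -0.21. With equal totals these calls turned round, to 10 higher and 4 lower for ATP synthase and 18 higher and 4 lower for the respiratory complexes, with medians of 0.10 and 0.13. Atp5o had 3376 and 3363 in statin LPS, against 4876 and 4686 in ctl LPS (-0.50), and Atp5k 1172 and 1226 in statin LPS, against 938 and 861 in ctl LPS (0.41). Cox6a2, a muscle-type subunit of complex IV, stood apart with 62.6 and 59.8 in statin LPS, against 297 and 312 in ctl LPS (-2.30). Ribosomal protein genes were lower throughout. All 29 fell, none by more than 2-fold, from -0.73 (Rpl10a) to -0.31 (Rps2), with a median of -0.60 (-0.26 with equal totals, where 28 were lower).

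Of 20 glycolysis genes, 12 rose (60%) and 7 fell (35%), where 37.3% and 40.0% of all genes did, with a median of 0.26. Slc16a3, which exports lactate, had 8749 and 8199 in statin LPS, against 2634 and 2643 in ctl LPS (1.68), Pfkl, the liver-type phosphofructokinase, had 6321 and 6236 in statin LPS, against 2193 and 2176 in ctl LPS (1.52), and its muscle-type relative Pfkm had 391 and 399.8 in statin LPS, against 747 and 784 in ctl LPS (-0.95). Slc2a1, the main glucose transporter, changed by 1.32 and Slc2a6, a lysosomal one, by -1.13. Lysosome genes, 10 higher (40%) and 12 lower (48%) of 25, near the 37.3% and 40.0% of all genes, had a median of -0.06. With equal totals 18 were higher and 6 lower, with a median of 0.29. Tfeb and Tfe3, factors that drive lysosome genes, had 728 and 762 in statin LPS against 213 and 202 in ctl LPS (1.84), and 7629 and 8079 against 3487 and 3522 (1.16). Grn, progranulin, had 37926 and 37382 in statin LPS, against 99782 and 102248 in ctl LPS (-1.42), and the protease Ctss had 28468 and 27420.4 in statin LPS, against 62943 and 61293 in ctl LPS (-1.15).

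Secreted growth factors had the highest median of all lists, 1.64, with 11 higher and 2 lower of 14 and 8 and 0 by more than 2-fold. Pdgfb, which acts on mesenchymal cells, had 43849.8 and 47724 in statin LPS, against 6106 and 6404 in ctl LPS (2.87 ± 0.04, adjusted p = 8.83e-15), and its relative Pdgfa changed by 2.57. Pgf, placental growth factor, had 114 and 131 in statin LPS, against 8.40 and 1.25 in ctl LPS (4.75), with few counts in ctl LPS. Hbegf and Areg, ligands of the EGF receptor, changed by 2.49 and 1.55, and Edn1, endothelin, by 1.95. Vegfc had 817 and 790.3 in statin LPS, against 1284 and 1285 in ctl LPS (-0.68, adjusted p = 0.0894 in the fit of all 8 libraries) and Igf1 286 and 320.1 in statin LPS, against 445 and 369 in ctl LPS (-0.42), which did not pass without ctl LPS replicate 1 (adjusted p = 0.0560) or with equal totals (-0.08).

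Of 24 matrix and adhesion genes, 9 were higher (37.5%) and 12 lower (50%), where 37.3% and 40.0% of all genes were, with a median of -0.07. With equal totals 11 were higher and 6 lower, with a median of 0.27. By more than 2-fold in the main test, 7 were higher (29.2%) and 4 lower (16.7%), where 8.52% and 11.8% of all genes were. Itgb3, an integrin chain of osteoclasts and macrophages, had 158 and 149 in statin LPS, against 5.88 and 5.01 in ctl LPS (4.59 ± 0.31), and the gelatinase Mmp9 had 7637 and 7820.4 in statin LPS, against 995 and 1025 in ctl LPS (2.93). Serpinb2, an inhibitor of plasminogen activators, had 137 and 104 in statin LPS, against 1057 and 965 in ctl LPS (-3.08), while its target Plau rose by 1.34. Vcam1 and Thbs1 did not pass and were among the 60 genes named above, and this list had the median 0.01 without ctl LPS replicate 1.

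Reference genes were not equally steady. Gapdh had 51349 and 50191 in statin LPS, against 46074 and 47156 in ctl LPS (0.12 ± 0.03, adjusted p = 0.0014, and 0.382 in the fit of all 8 libraries), whereas Actb, cytoplasmic beta-actin, had 104148 and 105167 in statin LPS, against 623646 and 630989 in ctl LPS, a change of -2.58 ± 0.03 (adjusted p = 3.19e-15). At rest Actb had 81206 and 81611 in statin and 137818 and 132145 in Ctrl, so that the ctl LPS libraries stood above all others. The markers of alternative activation Arg1 and Chil3 were at 0 reads or at 0 to 2.61 normalized counts in all 4 LPS libraries and were below the minimum for the test.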

How the data were processed

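RNA of 8 libraries of RAW264.7 cells was sequenced, 4 of them compared here. Libraries were stranded and made from RNA without ribosomal RNA, per the labels. STAR (2.5.3), HTSeq (0.9.1), DESeq2 (1.18.1) and build mm10 stand in the submitters' processing notes, whereas the methods of the study name Salmon, and no source used here gives the strand setting of the counts. The deposited signal is the normalized count, the reads of a gene divided by the library's size factor. All values (100%) were whole reads to within 0.01 reads once divided by the value of 1 read. The authors' tables of fold changes and p-values, and 12 columns of per-sample values outside these groups, were left out. Of 24421 entries, 27 carry dates in place of symbols and are not named.

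The main test was limma (3.58.1, R 4.3.3) on log2(normalized count + 1) in the 4 LPS libraries, with 2 residual degrees of freedom, eBayes with trend, genes with a mean of at least 10, two-sided p-values adjusted by Benjamini-Hochberg over 11613 genes and a threshold of 0.05. Fold changes on this scale understate those of low genes. The fit was also run on simulated counts as a check of the code only, with the outcome not reported here. On the recovered reads, edgeR (4.0.16) called 4551 genes higher and 4439 lower, and DESeq2 (1.42.0) 4005 and 4004. Alternatives were other scalings, pseudocounts, filters, fits and leaving out each library.

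The members and lists were chosen with earlier results of these data known. Named genes are the 10 largest rises and falls among genes that passed with a mean of at least 100 and replicates within 1.5-fold on normalized counts plus 1, the 2 largest of each direction in each list, a set of genes named in advance by the study's topic, and the 10 genes with the widest gap between ctl LPS replicates. Another 108 were named after their values were seen, and some genes that met these rules are not reported here. Coordinates and exon overlaps are from GENCODE M21 (mm10). Promoter sequences are those of RefSeq (GRCm38.p6), in which 8897 of the 11613 genes had an entry by symbol.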

Additional observations from a re-analysis of the deposited data

How the results depend on the processing

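The 4 counts of called genes kept within 1.5 times their main values under all alternatives but equal totals, which gave 6815 genes higher, 2638 lower and 1796 more than 2-fold higher (main 4337, 4640 and 990). Leaving out 1 library at a time, with the lone library assumed to vary like the other group, gave 4055 to 4220 genes higher, 4295 to 4451 lower, 937 to 1107 more than 2-fold higher and 1336 to 1435 more than 2-fold lower. The remaining settings gave 3647 to 4551, 3872 to 4796, 865 to 1107 and 1118 to 1630, and restricting the counts to genes with both pairs within 1.5-fold, chosen after seeing the data, gave 4218, 4436, 888 and 1182. Nothing states whether libraries of the same replicate number belong together, and the main test did not pair them. With only 2 pairs the deviations of same-numbered libraries had r = -0.06 over 11613 genes. With the replicate block 4325 genes were higher, 4602 lower, 1002 more than 2-fold higher and 1372 more than 2-fold lower.

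Of 248 tested genes that met the rule for naming or were named later, 18 turned direction with equal totals, where the log2 change was 0.33 for Ccl2, 0.29 for Ccl4, 0.14 for Cdc42, 0.19 for Cenpe, 0.27 for Cfl1, 0.27 for Ifnar1, 0.24 for Kdm7a, 0.18 for Nfkbia, 0.013 for Npc1, 0.23 for Nr1h2, 0.026 for Nr1h3, 0.28 for Pfn1, 0.15 for Rac1, 0.17 for Rhoa, 0.036 for Rps2, 0.26 for Socs3, 0.23 for Tnf and 0.28 for Zfp36. Leaving out 1 ctl LPS library turned 13 genes, which were higher without replicate 1 and lower without replicate 2. Their log2 change ran, over the libraries left out, for Apoe from -2.16 to 5.50, Bgn from -0.997 to 6.11, C1qa from -2.37 to 5.86, C1qb from -2.33 to 7.32, C1qc from -2.41 to 5.47, Col1a1 from -1.01 to 7.28, Col3a1 from -1.55 to 5.83, Cxcl5 from -1.19 to 5.08, Folr2 from -2.47 to 1.83, H2-Aa from -1.69 to 1.54, Slco3a1 from -2.02 to 5.55, Sparc from -0.98 to 6.19 and Vcam1 from -1.86 to 5.68. All passed in either case. With both ctl LPS libraries none passed in the main test, while Bgn, Col1a1 and Sparc did with the replicate block (adjusted p = 0.0382, 0.0241 and 0.0270), as did F13a1 (0.0488) and Mrc1 (0.0275). Ctl LPS replicate 2 holds 0 to 31.3 normalized counts of the 13 genes. In the fit of all 8 libraries 16 of the 248 genes no longer passed, namely Atf4, Cenpe, Cfl1, Cxcl1, Gapdh, Il10, Il1b, Kdm7a, Klf2, Nfkbia, Nr1h2, Rhob, Socs3, Srebf2, Tnf and Vegfc, and the cause was not tested. Genes with 10 to 100 normalized counts had a median SE of 0.36, so changes under 2-fold were poorly resolved there.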

Other observations

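Genes of the actin cytoskeleton, chosen after their values were seen, did not follow Actb as a group. Actg1, the other cytoplasmic actin, had 26966 and 26391 in statin LPS, against 123014 and 123043 in ctl LPS (log2 change -2.21, adjusted p = 3.52e-15), so both actin genes, which are alike in sequence, were lower in statin LPS. The adhesion protein gene Vcl had 2389 and 2262 in statin LPS, against 4529.6 and 4687 in ctl LPS (-0.99) and the filamin gene Flna had 41589.6 and 42240.4 in statin LPS, against 76728 and 77199.6 in ctl LPS (-0.88). Tln1, talin, went the other way with 62777 and 60464 in statin LPS, against 34116 and 34208 in ctl LPS (0.85), as did Tpm1, a tropomyosin, with 5557 and 5701 in statin LPS, against 3706 and 3410.4 in ctl LPS (0.66). Cfl1, cofilin, had 32049.5 and 33129 in statin LPS, against 33845 and 34689.8 in ctl LPS (-0.07, which did not pass without ctl LPS replicate 1 or 2 or statin LPS replicate 1, adjusted p = 0.0587, 0.239 and 0.130), and Pfn1, profilin, had 38999.7 and 39725 in statin LPS, against 40287 and 42069 in ctl LPS and did not pass (adjusted p = 0.0615).

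Markers of other lineages that are read in these cells also differed. Lck, a kinase known from T cells, had 419 and 399.8 in statin LPS, against 1538 and 1641 in ctl LPS (-1.95) with Cd3e and Cd3g at 0 reads. Of the 4 endothelial markers, Kdr, a receptor for vascular endothelial growth factor, had 17.4 and 3.98 in statin LPS, against 476 and 459 in ctl LPS (-5.61, and -6.56 or -4.67 with statin LPS replicate 1 or 2 left out), and Cdh5, a cadherin, had 1.74 and 1.33 in statin LPS, against 31.1 and 31.3 in ctl LPS (-3.67). Vwf, von Willebrand factor, went the other way with 293 and 316 in statin LPS, against 202 and 198 in ctl LPS (0.61), and Pecam1 stood at 0 to 5.88 in the 4 libraries. In Lck, Kdr, Cdh5 and Vwf both ctl LPS libraries were alike, unlike the complement and collagen genes.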
